A study of Mus musculus with 8 samples.

Results

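The genes described here mark the blood vessels of the hippocampus. They are 31 genes chosen by name from a count table of 46078 rows: 23 genes of endothelial cells and 8 genes of mural cells, the pericytes and smooth muscle cells that wrap them. All 31 were found, each in a single row, and all 31 passed the filter on low counts, among 15996 genes tested. Hippocampal poly(A) RNA came from 9-week-old mice of the strain C57BL/6J in 2 genotypes with 4 libraries each. One genotype was wild type (WT), and the other carried the Tg(Camk2a-cre)T29-1Stl transgene as Cre+/- (T29-1 Cre). The Camk2a promoter of this transgene directs Cre recombinase to excitatory neurons of the forebrain, not to vessels, and the labels name no floxed gene in either genotype. The series title concerns synaptotagmin 2 (Syt2) in this Cre line, and the comparison made here asks how vessel transcripts differ between carriers and non-carriers. The labels do not say whether each library came from its own animal, so the spread between libraries may be technical, nor whether hippocampi were pooled.

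Endothelial cells line the vessel wall. In the brain they form the blood-brain barrier, with tight junctions that seal the space between cells, transporters that carry nutrients in and drugs out, and tyrosine kinase receptors that read growth factors of the VEGF and angiopoietin families. Pericytes sit on capillaries within the basement membrane, and smooth muscle cells ring arterioles and hold the contractile proteins that set vessel width. In RNA of a whole tissue, fewer vessel cells and less RNA per vessel cell cannot be told apart.

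The libraries held 23358289 to 30882631 counts. WT replicate 4 stood apart from the other 7 along the leading principal component of log2 CPM (counts scaled to library size), with a score of 33.4 against -8.74 to 0.687. All 14 hippocampal neuron markers examined were tested in these libraries, among them Prox1 of dentate granule cells and Wfs1 of CA1 neurons, and their summed level was 8232 to 8812 CPM in WT and 8020 to 8716 CPM in T29-1 Cre. Every endothelial and mural gene had at least 25 counts in each library, and the highest single count was 2631, for Rgs5.

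Levels of different genes were compared per transcript length, as TPM (read counts divided by merged exon length and scaled to a fixed sum per library). Across the 31 genes the mean over 8 libraries ran from 1.55 TPM for Sox7 to 93.5 TPM for Vtn, with a median of 11.8 TPM for the endothelial and 10.6 TPM for the mural genes. By merged exon length, the first 5 stood together and apart from the rest. They were Vtn, the adhesive glycoprotein vitronectin that brain pericytes make (94.8 ± 6.70 TPM in WT and 92.2 ± 14.9 TPM in T29-1 Cre, SD, n = 4 each), Cldn5, the main claudin of the barrier's tight junctions (85.9 ± 5.62 TPM in WT and 87.6 ± 18.5 TPM in T29-1 Cre), Slc2a1, the glucose carrier GLUT1 (82.8 ± 8.89 TPM in WT and 82.2 ± 3.46 TPM in T29-1 Cre), Rgs5, a regulator of G protein signalling in pericytes (74.7 ± 9.72 TPM in WT and 78.9 ± 4.99 TPM in T29-1 Cre), and Itm2a, a membrane protein of endothelial cells (70.4 ± 3.497 TPM in WT and 72.1 ± 4.92 TPM in T29-1 Cre). Neighbours within this leading group kept their order in 4 to 7 of the 8 libraries, so that neighbouring levels did not differ beyond their spread. Itm2a lay above the sixth gene, Ly6c1, in all 8 libraries. The merged exon length of Ly6c1 is 1677 bases and its longest transcript 844, while both are 1744 for Itm2a. The gap below the leading group therefore depends on the length used. Ly6c1 (mean 34.9 TPM), a surface protein whose reads may be split with its near copy Ly6c2, and Mfsd2a (32.4 TPM), the carrier of lysophosphatidylcholine with omega-3 fatty acids, followed.

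The growth factor and vascular receptors were in the middle and lower range by merged exon length. That length is 13504 bases for Flt1 and 9030 for Kdr, against 6895 and 5924 for their longest transcripts. Eng, a TGF-beta co-receptor, was at 17.1 TPM and Flt1, the VEGF receptor 1, at 15.6 TPM. Tek and Tie1, the receptor and co-receptor of angiopoietins, were at 10.4 and 8.66 TPM, Kdr, the main signalling receptor of VEGF-A, at 5.92 TPM, and Robo4, a roundabout receptor of endothelial cells, at 3.28 TPM. Pdgfrb, the receptor through which endothelial PDGF-B recruits pericytes, was at 19.6 TPM. Among the transcription factors Sox18 (14.1 TPM) lay above Sox17 (4.06 TPM), Erg (3.86 TPM) and Sox7 (1.55 TPM). The smooth muscle genes were Acta2 (12.9 TPM), the actin of smooth muscle, Tagln (8.38 TPM), the actin-binding protein transgelin, and Myh11 (5.24 TPM), the smooth muscle myosin heavy chain. In the order by level, neighbours lower down mostly changed places between libraries. Besides Itm2a over Ly6c1, the order held in all 8 libraries for Mfsd2a over Pdgfrb, Slco1a4 over Abcb1a, Cdh5 over Pecam1, Robo4 over Anpep, Anpep over Emcn and Emcn over Sox7. All libraries share the same gene lengths, so this does not cover the choice of length. The merged length is 6228 bases for Pecam1 and 5409 for Emcn, against 3441 and 3521 for their longest transcripts. For Cdh5 and Anpep it is 4203 and 4135, against 3995 and 3797. The orders of Cdh5 over Pecam1 and Anpep over Emcn depend on that choice.

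**Figure D1:**
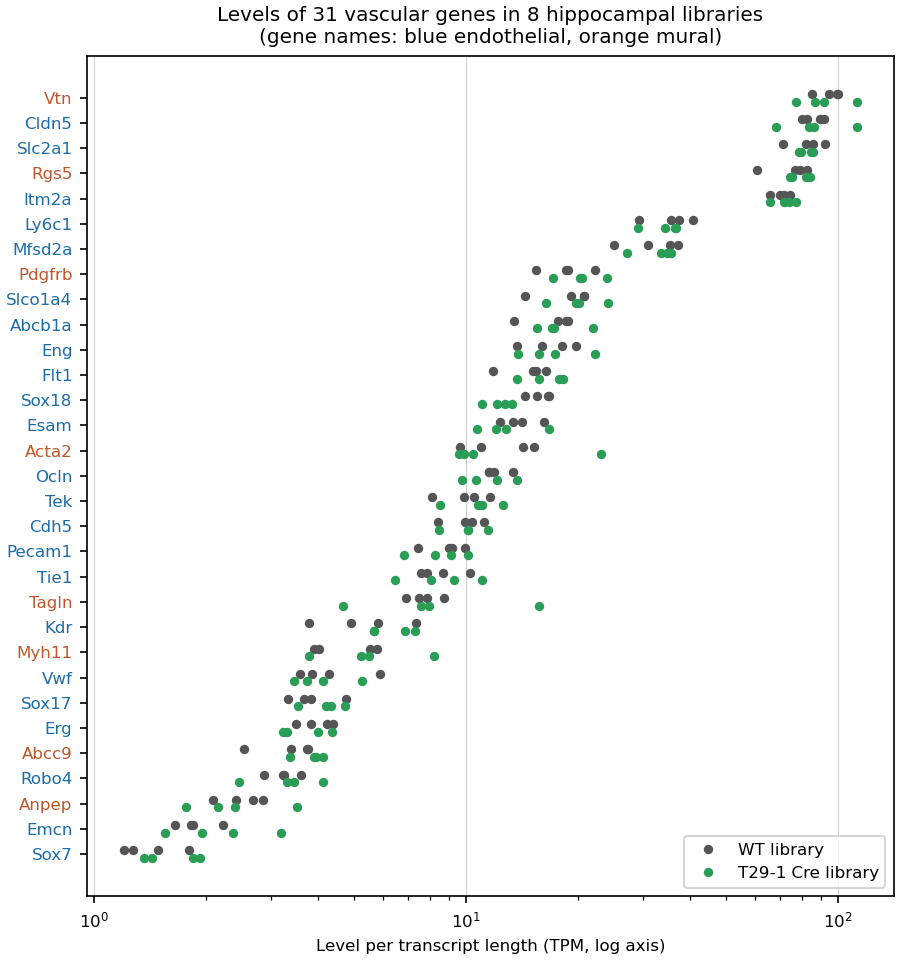
Level of each of the 31 genes per transcript length (TPM from merged exon length, log axis), one point per library, ordered by the mean over 8 libraries. By this length, Vtn, Cldn5, Slc2a1, Rgs5 and Itm2a form a leading group between 71.2 and 93.5 TPM on average, and Sox7 is lowest at 1.55 TPM.

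The promoters of genes that stand for the endothelial and the mural side are shown because their levels are followed by library below. Of the 31 genes, 21 had an entry in the RefSeq promoter table (GRCm38.p6, 250 bases before to 50 after the start), and these had 25 promoters. Smooth muscle genes are classic targets of serum response factor, which binds the CArG box, 2 C bases, 6 A or T bases and 2 G bases. Of the 25 promoters, 20 were of endothelial and 5 of mural genes. Acta2 was the only smooth muscle gene among them, as Tagln and Myh11 had no entry. The exact CArG box occurred in 0 of the 25 promoters and in 1.63% of all 32851. A looser form, in which 5 or more of the middle 6 bases are A or T, was added after the exact search had been seen. It occurred in 6 of the 25, 5 of endothelial genes and 1 of a mural gene (Acta2), and in 9.98% of all promoters. These counts therefore do not describe smooth muscle genes as a class. The Acta2 promoter (chr19:34255324-34255623, GRCm38.p6, minus strand) held 2 such sites in capitals, beginning 84 and 34 bases before the RefSeq start. The last base of the second is also the first of a GGAAG. The gene extent given below for Acta2, from another annotation, begins further upstream at 34255590. Both sites lie inside that extent, so their place before the start depends on the annotation. The Rgs5 promoter (chr1:169655251-169655550, plus strand) had no match. ETS factors such as Erg bind around the core GGAA. The longer string GGAAG, on either strand, was in 17 of the 25 promoters and in 71.4% of all. It is shown in capitals in the Flt1 promoter (chr5:147725962-147726261, minus strand), where it occurs 3 times, and is absent from the Cldn5 promoter (chr16:18776597-18776896, plus strand). The string ACAAT, the core that SOX factors recognise, was in 6 of the 25 and in 31.02% of all. A match is a string of letters and not evidence of binding.
Acta2: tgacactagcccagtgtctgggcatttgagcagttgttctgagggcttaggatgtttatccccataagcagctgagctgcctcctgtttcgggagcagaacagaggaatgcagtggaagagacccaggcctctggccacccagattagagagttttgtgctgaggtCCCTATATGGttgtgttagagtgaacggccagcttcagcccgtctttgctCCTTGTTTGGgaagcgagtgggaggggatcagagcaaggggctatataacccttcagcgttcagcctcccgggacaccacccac
Rgs5: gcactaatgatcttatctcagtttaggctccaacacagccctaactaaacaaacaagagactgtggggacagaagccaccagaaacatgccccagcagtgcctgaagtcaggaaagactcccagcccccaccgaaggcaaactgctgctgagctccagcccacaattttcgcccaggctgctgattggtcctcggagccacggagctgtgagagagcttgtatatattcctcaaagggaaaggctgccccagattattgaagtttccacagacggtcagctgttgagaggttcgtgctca
Flt1: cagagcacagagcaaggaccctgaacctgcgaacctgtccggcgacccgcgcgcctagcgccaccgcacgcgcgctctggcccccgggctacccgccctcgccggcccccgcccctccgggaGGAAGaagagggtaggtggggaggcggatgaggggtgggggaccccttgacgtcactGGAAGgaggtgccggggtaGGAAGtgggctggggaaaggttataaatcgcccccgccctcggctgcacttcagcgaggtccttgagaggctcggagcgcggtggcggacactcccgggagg
Cldn5: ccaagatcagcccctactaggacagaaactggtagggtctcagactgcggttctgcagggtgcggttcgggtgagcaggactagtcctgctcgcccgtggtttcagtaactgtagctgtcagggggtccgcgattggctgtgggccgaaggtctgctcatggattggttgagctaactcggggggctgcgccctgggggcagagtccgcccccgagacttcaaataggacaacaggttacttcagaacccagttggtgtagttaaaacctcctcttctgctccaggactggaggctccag

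Between the genotypes, none of the 31 vessel genes passed the threshold. With edgeR's quasi-likelihood test and Benjamini-Hochberg adjustment over all genes, 0 of 23 endothelial and 0 of 8 mural genes had an adjusted p under 0.05, against 1 of 15996 tested genes (0.00625%). DESeq2 and limma-voom also called 0 of them. With edgeR, 1 of the 31 was at an unadjusted p under 0.05, Sox18 (3.23%), against 2.43% of all tested genes in either direction and 1.16% lower in T29-1 Cre. The same gene alone was at that level with DESeq2, against 1.67% of all tested genes, and with limma-voom, against 2.41%. The lowest adjusted p of any member was 0.998. The endothelial genes had a median log2 fold change of 0.00853, with 14 values above and 9 below 0, and the mural genes one of 0.0839, with 6 above and 2 below. Over all tested genes the median was -0.000752. Without T29-1 Cre replicate 1 the medians were -0.0794 for endothelial and -0.0910 for mural genes, so the sign of both turned with this library. For 25 of the 31 genes the 95% confidence interval lay within 1.5-fold in both directions. The other 6 were Sox18 on the lower side and Emcn, Sox7, Acta2, Tagln and Myh11 on the upper, so that a difference past 1.5-fold remains inside their intervals.

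**Figure D2:**
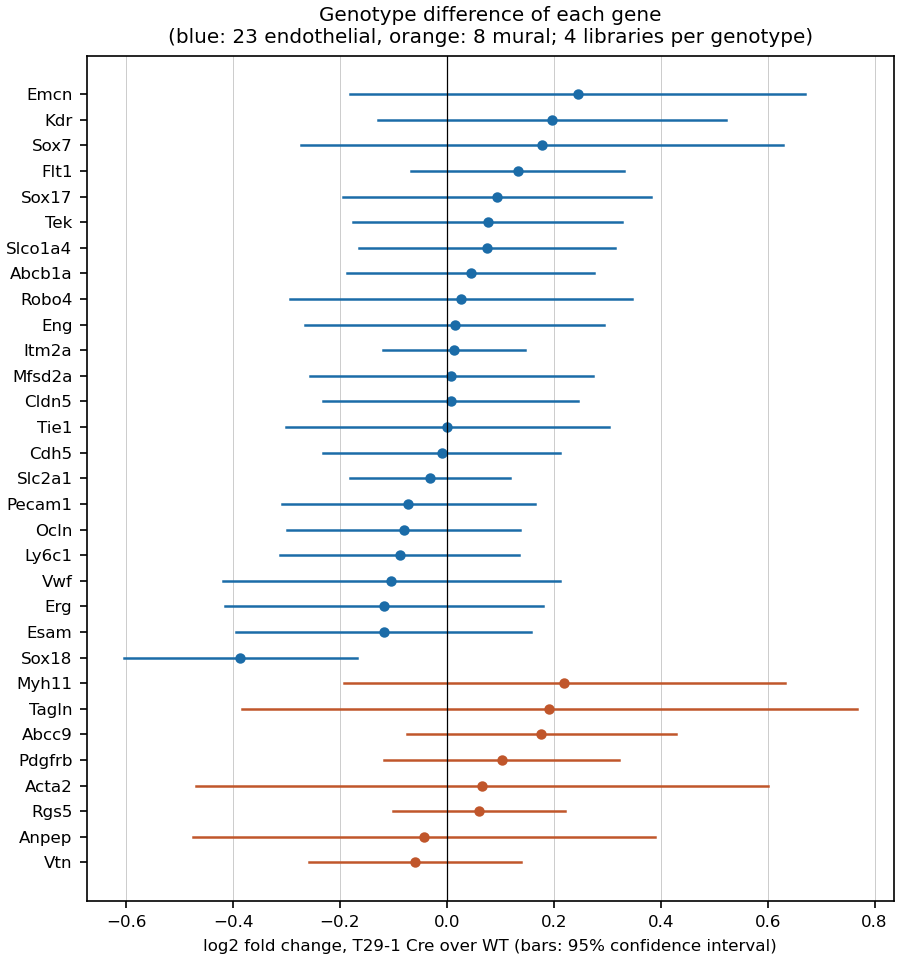
Log2 fold change of each gene between the genotypes with its 95% confidence interval, for 23 endothelial and 8 mural genes. The interval of Sox18 lies below 0 and that of each other gene spans 0; the widest belong to Tagln, Acta2 and Sox7.

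The junction genes hold neighbouring endothelial cells together. Cldn5 (chromosome 16, 18776847 to 18778262, plus strand, GRCm38) was at 31.02, 27.8, 30.2 and 28.1 CPM in WT replicates 1 to 4 and at 37.7, 27.9, 28.8 and 23.2 CPM in T29-1 Cre replicates 1 to 4. The WT libraries lay close together, and the T29-1 Cre libraries held both the highest and the lowest value. The log2 fold change was 0.00692 (SE 0.111), and the fold change interval was 0.852 to 1.19. Pecam1, the adhesion molecule CD31, was at 13.6, 14.8, 13.4 and 11.5 CPM in the WT libraries and at 14.96, 13.4, 12.2 and 10.3 CPM in T29-1 Cre. The groups overlapped, with a log2 fold change of -0.0718 (SE 0.110). The tight junction protein occludin (Ocln) ranged from 11.6 to 13.5 CPM in WT and from 9.97 to 13.8 CPM in T29-1 Cre. Cdh5, the cadherin of endothelial adherens junctions, ranged from 8.78 to 11.2 CPM in WT and from 8.59 to 11.4 CPM in T29-1 Cre. For Esam, an adhesion molecule at the tight junctions, the range was 8.42 to 11.1 CPM in WT and from 7.42 to 11.4 CPM in T29-1 Cre. The log2 fold changes of these 3 were -0.0810 (SE 0.101), -0.00970 (SE 0.103) and -0.12 (SE 0.128), and for all 3 the T29-1 Cre range enclosed that of WT. All 5 intervals lay between 0.761-fold and 1.19-fold.

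All 6 vascular receptors had a log2 fold change above 0, by under 0.001 for Tie1, and none passed the test. Of all 15996 tested genes, 7955 were above 0. Without T29-1 Cre replicate 1, Tek (-0.00908), Tie1 (-0.135), Eng (-0.129) and Robo4 (-0.0922) were below 0. Flt1 (0.0766) and Kdr (0.124) stayed above. Flt1 (chromosome 5, 147561604 to 147726011, minus strand) was at 49.8, 53.0, 48.9 and 39.8 CPM in WT and at 58.5, 56.6, 50.1 and 44.8 CPM in T29-1 Cre, a log2 fold change of 0.13 (SE 0.0926). Only T29-1 Cre replicates 1 and 2 exceeded all WT libraries. Kdr, the second VEGF receptor, was at 15.8, 10.6, 12.5 and 8.48 CPM in WT and at 15.6, 14.6, 12.1 and 12.3 CPM in T29-1 Cre. Here WT replicates 1 and 4 marked both ends of the range, and the log2 fold change was 0.20 (SE 0.152). Tek, the receptor of angiopoietins, ranged from 9.49 to 13.1 CPM in WT and from 9.67 to 14.1 CPM in T29-1 Cre, and its partner Tie1 from 9.24 to 12.01 CPM in WT and from 7.65 to 12.9 CPM in T29-1 Cre. Eng, which helps endothelial cells read TGF-beta and BMP ligands, ranged from 13.8 to 19.1 CPM in WT and from 13.5 to 21.3 CPM in T29-1 Cre. Robo4 ranged from 3.62 to 4.56 CPM in WT and from 3.15 to 5.17 CPM in T29-1 Cre. The log2 fold changes of these 4 were 0.0761 for Tek, 0.000909 for Tie1, 0.0146 for Eng and 0.0258 for Robo4, and the highest upper limit of the 6 was 1.44-fold, for Kdr.

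Barrier transporters had fold changes near 1. Slc2a1 averaged 69.97 ± 7.51 CPM in the WT libraries against 68.4 ± 2.43 CPM in carriers (SD, n = 4 per genotype), with a fold change interval of 0.882 to 1.09. Mfsd2a was at 17.4 ± 3.21 and 17.5 ± 2.10 CPM, with an interval of 0.838 to 1.21. Slco1a4, an organic anion carrier, ranged from 23.03 to 31.9 CPM in WT and from 25.4 to 36.5 CPM in T29-1 Cre. Abcb1a, the drug efflux pump P-glycoprotein, ranged from 18.3 to 24.6 CPM in WT and from 20.5 to 28.4 CPM in T29-1 Cre. These 2 transporters had log2 fold changes of 0.0746 (SE 0.111) and 0.0444 (SE 0.107). Of the surface and secreted proteins, Itm2a had the narrowest interval of all 31 genes, 0.921 to 1.11, with means of 29.6 ± 1.52 CPM for WT libraries and 29.9 ± 1.78 CPM for carriers (SD, n = 4 per genotype). Ly6c1 ranged from 11.7 to 16.3 CPM in WT and from 11.7 to 14.5 CPM in T29-1 Cre. The clotting glycoprotein von Willebrand factor (Vwf) ranged from 14.3 to 22.6 CPM in WT and from 13.4 to 20.1 CPM in T29-1 Cre, and the sialomucin endomucin (Emcn) from 2.21 to 2.88 CPM in WT and from 2.02 to 4.08 CPM in T29-1 Cre. The groups of all 3 overlapped, and their log2 fold changes were -0.0884 (SE 0.104), -0.10 (SE 0.147) and 0.24 (SE 0.198). Without T29-1 Cre replicate 1 that of Emcn was 0.0359.

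Sox18 was the 1 gene of the 31 whose genotypes did not overlap (3.23%). Of all tested genes, 1.81% had groups that did not overlap, and 0.963% had all T29-1 Cre libraries lower. Sox7, Sox17 and Sox18 form the SoxF group of transcription factors, which act together and partly in place of each other in endothelial cells and in the arteries. Sox18 (chromosome 2, 181669836 to 181671640, minus strand) was at 6.47, 6.01, 6.43 and 5.81 CPM in WT and at 4.87, 4.64, 5.09 and 4.31 CPM in T29-1 Cre. Every T29-1 Cre library lay below every WT library. The means were 6.18 ± 0.324 and 4.73 ± 0.333 CPM (SD, n = 4 each), a fold change of 0.765 with an interval of 0.658 to 0.890, and edgeR's adjusted p was 0.998, so the difference does not pass the test over all genes. These values rest on 108 to 197 counts per library, and no other annotated exon overlaps those of Sox18. The authors' deposited table gives Sox18 a log2 fold change of -0.39 and a p-value under 0.05, the 1 such p-value among the 31 genes. Because this gene ranked high in the same libraries before, its separation is a description.

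For the other SoxF genes the genotypes overlapped. Sox17 (chromosome 1, 4490931 to 4497354, minus strand) was at 5.42, 4.36, 3.79 and 4.35 CPM in WT and at 5.36, 4.73, 4.91 and 4.09 CPM in T29-1 Cre, a log2 fold change of 0.0943 (SE 0.134). Sox7 (chromosome 14, 63943673 to 63950732, plus strand) was at 1.42, 1.17, 0.947 and 1.04 CPM in WT and at 1.51, 1.12, 1.44 and 1.09 CPM in T29-1 Cre, or 0.18 (SE 0.209), on 25 to 40 counts per library. In neither did the libraries separate by genotype. Erg, the ETS factor that maintains endothelial identity, ranged from 3.01 to 3.62 CPM in WT and from 2.70 to 3.59 CPM in T29-1 Cre, with a log2 fold change of -0.12 (SE 0.138). Within a library, the log2 difference of Sox18 over Sox17 was 0.25, 0.46, 0.75 and 0.41 in WT replicates 1 to 4 and -0.14, -0.0260, 0.0513 and 0.0759 in T29-1 Cre replicates 1 to 4. Set against the median deviation of the other 22 endothelial genes in the same library, Sox18 stood at 0.15, 0.0896, 0.32 and 0.25 in WT and -0.43, -0.22, -0.0869 and -0.0809 in T29-1 Cre. The same measure for Sox17 and Sox7 overlapped between genotypes. Both measures reuse the Sox18 values above and describe them on another scale, with no support added.

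**Figure D3:**
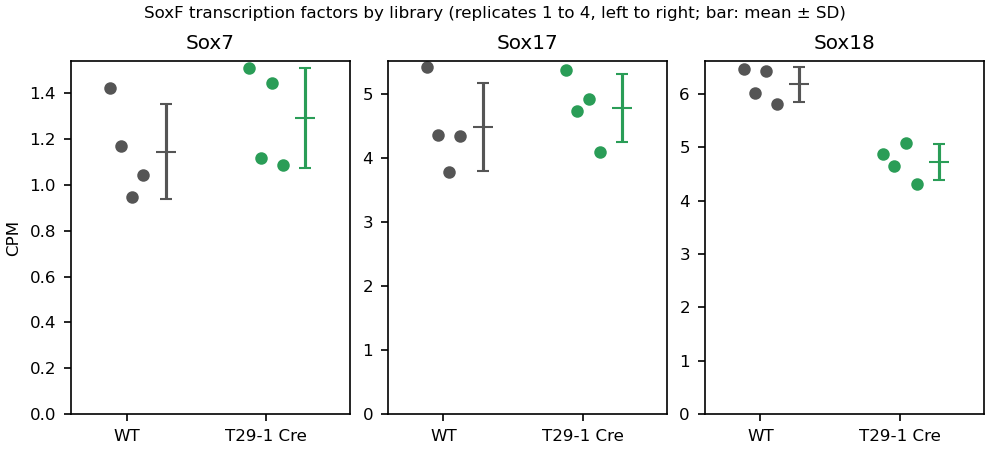
Levels of Sox7, Sox17 and Sox18 in CPM, one point per library in replicate order, with the mean and SD (n = 4) beside each group. For Sox18 the WT libraries, 6.47, 6.01, 6.43 and 5.81 CPM, all lie above the T29-1 Cre libraries, 4.87, 4.64, 5.09 and 4.31 CPM, and for the other 2 genes the groups overlap.

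Pericyte genes were within the spread between libraries. Pdgfrb was at 29.1, 24.6, 24.3 and 21.02 CPM in WT and at 31.05, 26.5, 26.3 and 22.6 CPM in T29-1 Cre, a log2 fold change of 0.10 (SE 0.102), or 0.0192 without T29-1 Cre replicate 1. Rgs5 was at 83.1, 89.3, 85.9 and 68.4 CPM in WT and at 90.7, 87.8, 79.9 and 82.4 CPM in T29-1 Cre, with WT replicate 4 lowest of all and a log2 fold change of 0.0598 (SE 0.0748). Abcc9, the sulfonylurea receptor subunit of the potassium channel of pericytes, was at 7.52, 7.46, 6.76 and 5.27 CPM in WT and at 7.86, 7.70, 8.20 and 6.82 CPM in T29-1 Cre. Again WT replicate 4 was lowest, and the log2 fold change was 0.18 (SE 0.117). This library was the lowest of the 8 for 3 of 8 mural genes (37.5%) and for 27.2% of all tested genes. Vtn (chromosome 11, 78499091 to 78502324, plus strand) was at 48.2, 48.3, 41.4 and 47.6 CPM in WT and at 54.1, 41.6, 44.2 and 37.8 CPM in T29-1 Cre, or -0.0593 (SE 0.0925), and the T29-1 Cre libraries enclosed the whole WT range. Anpep, the aminopeptidase CD13 of pericytes, ranged from 2.06 to 2.81 CPM in WT and from 1.76 to 3.44 CPM in T29-1 Cre, with a log2 fold change of -0.0429 (SE 0.201).

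Smooth muscle genes spread widely within T29-1 Cre. Acta2 (chromosome 19, 34241090 to 34255590, minus strand) was at 7.97, 7.46, 5.74 and 5.27 CPM in WT and at 11.97, 5.42, 4.98 and 5.25 CPM in T29-1 Cre. Replicate 1 of T29-1 Cre was 2.28 times replicate 4, while the genotype means were 6.61 ± 1.31 and 6.91 ± 3.38 CPM (SD, n = 4 each). Tagln (chromosome 9, 45929619 to 45936058, minus strand) was at 4.15, 3.27, 3.56 and 3.89 CPM in WT and at 7.40, 3.74, 3.57 and 2.25 CPM in T29-1 Cre, a ratio of 3.29 between replicates 1 and 4. Myh11 (chromosome 16, 14194535 to 14291372, minus strand) was at 7.30, 10.003, 10.4 and 7.35 CPM in WT and at 14.8, 9.38, 9.86 and 6.94 CPM in T29-1 Cre, a ratio of 2.13. For all 3 genes T29-1 Cre replicate 1 was the highest of the 8 libraries. The log2 fold changes were 0.0656 (SE 0.249), 0.19 (SE 0.268) and 0.22 (SE 0.192), and without T29-1 Cre replicate 1 they were -0.34, -0.22 and -0.0136, with the sign turned in each case. Tagln shares 62.4% of its exon bases with the antisense gene Gm48529 and 5.43% with Pcsk7, also on the opposite strand. For Gm48529 no counts were found, which may mean 0 in all libraries or no row in the count table. The libraries were made with a directional kit, but the strand setting of the counting is not named in the labels, so some reads of Tagln are uncertain. Sox17 likewise shares 16.8% with Gm37587 on the opposite strand, for which no counts were found either.

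The same ordering of the T29-1 Cre libraries ran through most of the vessel genes. Among the 4 T29-1 Cre libraries, replicate 1 was highest for 26 of the 31 genes (83.9%) and replicate 4 lowest for 26 (83.9%), against 26.4% and 29.01% of all tested genes. Both held at once for 22 of 31 (71.0%) and for 11.03% of all tested genes. Replicate 1 exceeded replicate 4 by more than 1.25 times for 17 of 23 endothelial genes and 6 of 8 mural genes, against 11.6% of all tested genes. The median ratio was 1.38 for endothelial genes, 1.37 for pericyte genes, 2.28 for smooth muscle genes and 1.00 for all tested genes. The 5 genes that were not highest in replicate 1 were Ocln, Mfsd2a, Ly6c1, Sox18 and Abcc9, and the 5 not lowest in replicate 4 were Slc2a1, Mfsd2a, Kdr, Rgs5 and Acta2. Mfsd2a was thus the single gene outside the ordering at both ends. Over all 8 libraries, replicate 1 of T29-1 Cre was highest for 14 endothelial (60.9%) and 7 mural genes (87.5%), against 10.5% of all tested genes. This ordering was noticed in these libraries and has no test. T29-1 Cre replicates 1 and 4 were both left out as a check chosen after seeing the data, and Sox18 then had a log2 fold change of -0.34.

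**Figure D4:**
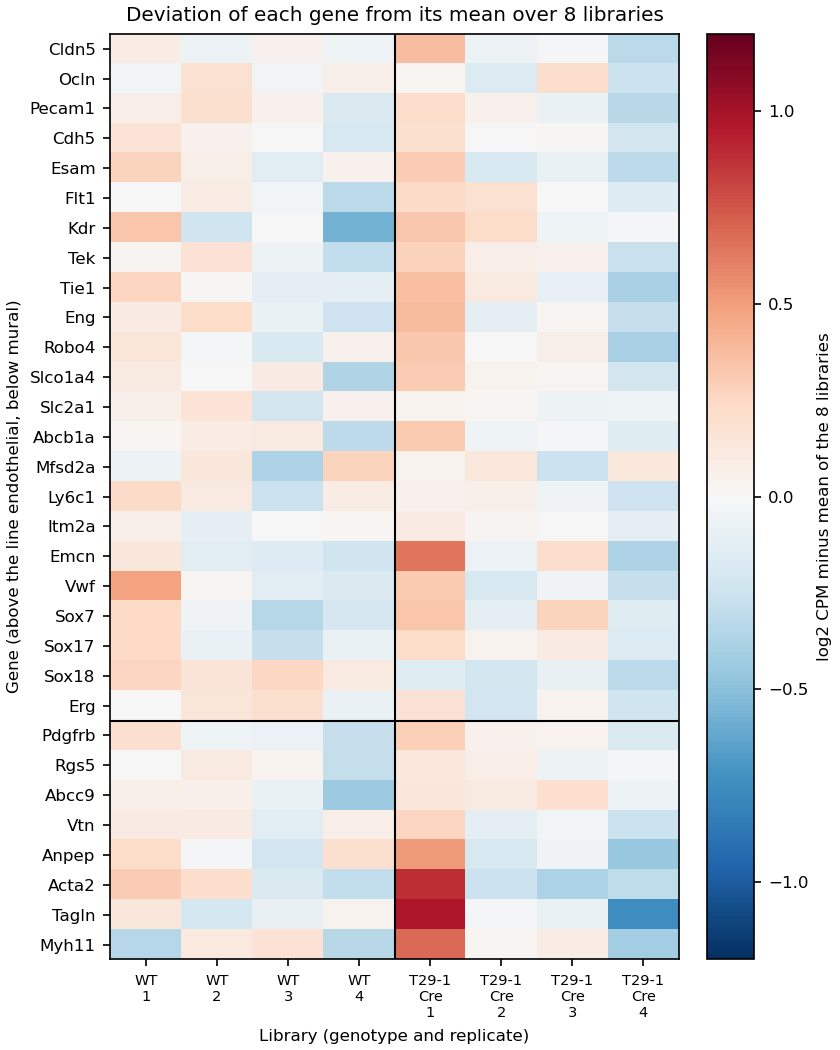
Log2 CPM of each gene in each library minus its mean over the 8 libraries, with endothelial genes above the horizontal line and mural genes below. T29-1 Cre replicate 1 is red for nearly all genes and T29-1 Cre replicate 4 blue, and the Sox18 row is red in WT and blue in T29-1 Cre.

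The spread within genotypes was larger than that of other genes at a like level for most vessel genes. The within-genotype SD of log2 CPM was above the median of its level bin (20 bins of mean CPM) for 27 of 31 genes, with a median ratio of 1.62 for endothelial and 2.05 for mural genes. The ratios reached 3.02 for Acta2, 2.85 for Myh11 and 2.81 for Tagln. Vwf (2.62) and Kdr (2.48) led the endothelial genes. The 4 genes below the median were Itm2a (0.873), Erg (0.759), Sox7 (0.732) and Sox18, the lowest at 0.498.

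Markers of other cell types were read in the same libraries. The median deviation of the smooth muscle genes from their mean over all libraries was 0.88, -0.0162, -0.0808 and -0.41 in T29-1 Cre replicates 1 to 4 and 0.13, 0.11, -0.0874 and -0.29 in the WT replicates. This median is over 3 genes. The 12 other smooth muscle genes tested had 0.13, -0.0733, -0.0693 and -0.16 in T29-1 Cre and 0.0529, 0.0274, 0.0151 and 0.00769 in WT. In their summed CPM, replicate 1 over replicate 4 of T29-1 Cre was 1.04, against 2.37 for Acta2, Tagln and Myh11. Most of that sum, 220 to 234 CPM in T29-1 Cre, was Tpm1, with a mean of 181 CPM. The ratio of 1.04 therefore says little about the rest of the list. For the fibroblast list, the median deviation of 14 markers of meningeal and perivascular fibroblasts, all tested and none at 0 counts, was 0.56, -0.19, 0.0899 and -0.57 in T29-1 Cre and -0.0614, -0.0196, -0.0194 and 0.20 in WT. The fibroblast markers thus had the same highest and lowest library within T29-1 Cre, while in WT replicate 4 they were highest and the vessel genes lowest. Their summed level was 172 to 242 CPM in T29-1 Cre and 184 to 197 CPM in WT. Endothelial genes had median deviations of 0.27, 0.00118, -0.00198 and -0.25 in T29-1 Cre and 0.11, 0.0720, -0.0599 and -0.12 in WT. The 5 tested blood cell markers of 8 were at 0.19 in T29-1 Cre replicate 1, -0.35 in replicate 4 and 0.70 in WT replicate 1, their highest library, with summed levels of 29.9 to 47.6 CPM in T29-1 Cre and 34.5 to 62.0 in WT. WT replicate 1 was also the highest of all libraries for Vwf, Kdr, Ly6c1, Sox17 and Sox18, 16.1% of the 31 genes, against 12.6% of all tested genes. The 7 tested ependymal markers of 10 ran the other way within T29-1 Cre, at -0.28 in replicate 1 and 0.59 in replicate 4, and at 0.68 in WT replicate 1, with summed levels of 19.4 to 28.98 CPM in T29-1 Cre and 16.9 to 33.7 CPM in WT. Of the 7 ependymal markers, Tm4sf1 is also a gene of endothelial cells, so their summed level may include vessel RNA. The 14 neuron markers had median deviations from -0.0775 in T29-1 Cre replicate 1 to 0.0621 in WT replicate 1. Astrocyte markers were at 0.0627 in T29-1 Cre replicate 1, -0.0186 in replicate 4 and -0.0862 in WT replicate 4. Their summed level was 4400 CPM in WT replicate 4, and it was 5304 to 5513 CPM in T29-1 Cre. Microglia and macrophage markers were at 0.0693, -0.0435 and 0.20 in the same 3 libraries, and the 5 tested choroid plexus markers at 0.0668, -0.24 and -0.0944. The part of the content of any of these other cell types in the spread of the vessel genes was not tested.

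**Figure D5:**
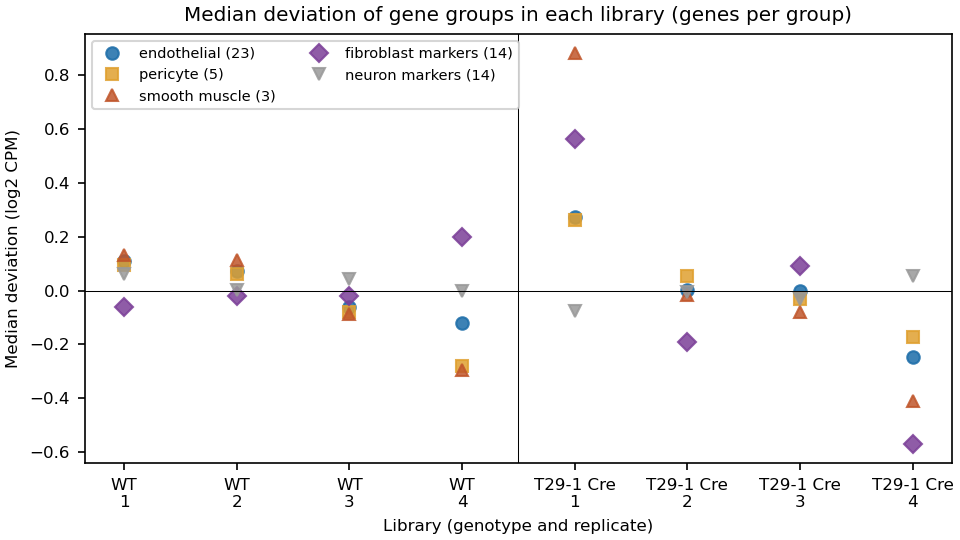
Median deviation from the 8-library mean (log2 CPM) of endothelial, pericyte and smooth muscle genes and of fibroblast and neuron markers in each library. In T29-1 Cre replicate 1 the smooth muscle genes are at 0.88 and the fibroblast markers at 0.56, and in replicate 4 at -0.41 and -0.57.

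Pairs of genes were followed across the 8 libraries, in a family of 6 pairs. Acta2 and Tagln had a Pearson r of 0.774 (exact permutation p = 0.0361, adjusted 0.108) and a Spearman rho of 0.524 (exact permutation p = 0.197, adjusted 0.393). Without T29-1 Cre replicate 1 and WT replicate 1, the libraries farthest from the Acta2 median, r was -0.00134. Cldn5 and Pdgfrb, one gene each of the endothelial and the mural side, had an r of 0.753 (exact permutation p = 0.0330, adjusted 0.108) and a rho of 0.619 (exact permutation p = 0.115, adjusted 0.345), and r was 0.521 without T29-1 Cre replicates 1 and 4. The r of the other 4 pairs was 0.720 for Tagln with Myh11, 0.656 for Pdgfrb with Rgs5, 0.614 for Acta2 with Myh11 and 0.546 for Cldn5 with Flt1. Their exact permutation p was 0.0684, 0.0736, 0.0914 and 0.148, with adjusted values of 0.110 for the first 3 and 0.148 for the last. Their rho was 0.190, 0.619, 0.452 and 0.286 (exact permutation p = 0.665, 0.115, 0.267 and 0.501). Without the 2 libraries farthest from the median of the first gene, T29-1 Cre replicate 1 among them in every pair, r was -0.848, -0.117, 0.411 and -0.0420. None of the 6 pairs passed after adjustment. For Acta2 with Tagln, Tagln with Myh11, Pdgfrb with Rgs5 and Cldn5 with Flt1, r was at or below 0 without those libraries. Leaving out the farthest libraries narrows the range of the first gene, which can itself lower r. With a single library left out in turn, the lowest r of these 4 pairs was 0.292, 0.246, 0.310 and 0.269. Without T29-1 Cre replicate 1 alone, r was -0.0345 for Acta2 with Myh11, so that this relation rested on that library, and 0.574 for Pdgfrb with Rgs5.

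None of the genes in further lists related to vessels passed the test. In RNA of whole hippocampus, their reads cannot be assigned to vessel cells. In these 9 lists, 140 of 146 genes were tested, and edgeR, DESeq2 and limma-voom each called 0. With edgeR 4 (2.86%) were at an unadjusted p under 0.05, against 2.43% of all tested genes. With DESeq2 there were 3 (2.14%, against 1.67%) and with limma-voom 4 (2.86%, against 2.41%). The 4 of edgeR were Angpt1, the ligand that activates Tek, at 0.24 (SE 0.0961) on the log2 scale, Efnb2, the ephrin ligand of arteries, at 0.16 (SE 0.0703), Nr2f2, the nuclear receptor COUP-TFII of veins, at 0.24 (SE 0.0975), and Car4, a carbonic anhydrase of capillaries, at -0.17 (SE 0.0783). Each had an adjusted p of 0.998 in edgeR. Of 14 ligands and co-receptors of VEGF, angiopoietin and PDGF-B, 7 had a higher and 7 a lower value in T29-1 Cre, with a median of 0.0172. Genes of Wnt signalling at the barrier had a median of 0.0188 over 15 genes, with the feedback gene Axin2 at 0.10 (SE 0.0666) and the ligand Wnt7b at -0.0459 (SE 0.0567). Further transporters and junction genes had a median of 0.0367 over 16, with the amino acid carrier Slc7a5 at 0.0791 (SE 0.0468) and the lactate carrier Slc16a1 at 0.0590 (SE 0.0481).

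Arterial and venous genes had 14 of 17 values above 0 and a median of 0.0549. Their median deviation was 0.20 in T29-1 Cre replicate 1 and -0.20 in replicate 4, and without replicate 1 there were 9 values above 0 and a median of 0.0190. Other endothelial transcription factors were at a median of -0.00942 over 14 genes, with Gata2 at 0.28 (SE 0.140) and the ETS factor Elk3 at -0.15 (SE 0.117). Other endothelial genes had a median of 0.0144 over 22. Of 16 further pericyte genes, 13 had a higher value, with a median of 0.0758, Higd1b at 0.30 (SE 0.172) and the mural Notch receptor Notch3 at 0.16 (SE 0.106). Their median deviation was 0.20 in T29-1 Cre replicate 1 and -0.13 in replicate 4, and without replicate 1 7 had a higher value, with a median of -0.0186. Among 12 further smooth muscle genes 5 had a higher and 7 a lower value, with a median of -0.0359 and smoothelin (Smtn) at -0.21 (SE 0.119) and tropomyosin 1 (Tpm1) at -0.0578 (SE 0.0435). Cnn1, Actg2 and Myocd, which are also smooth muscle genes, did not pass the filter on low counts. The basement membrane list had a median of 0.0320 over 14 genes, with the laminin chain Lama2 at 0.14 (SE 0.0841) and the collagen Col18a1 at 0.23 (SE 0.171).

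The marker lists of other cell types held 68 tested genes of 80, of which edgeR, DESeq2 and limma-voom called 0. At an unadjusted p under 0.05 edgeR had 4 (5.88%), against 2.43% of all tested genes. DESeq2 had 5 (7.35%, against 1.67%) and limma-voom 4 (5.88%, against 2.41%). Fibroblast markers had a median log2 fold change of 0.0575, with Islr at -0.19 (SE 0.132) and the proteoglycan decorin (Dcn) at 0.10 (SE 0.0971), and the median was -0.23 without T29-1 Cre replicate 1. Blood cell markers were lower in all 5 of those tested, by value and not by call, with a median of -0.30 and the haemoglobin chain Hba-a1 at -0.32 (SE 0.146). The median was -0.0578 for 13 microglia and macrophage markers, with Lyve1 at -0.63 (SE 0.402) and Aif1 at -0.24 (SE 0.157), and -0.0115 for 10 astrocyte markers, with Fgfr3 at 0.17 (SE 0.0610). Astrocytes cover the vessels with their endfeet. For 5 choroid plexus markers the median was 0.11, with Ttr at 2.39 (SE 0.633) and Clic6 at 0.89 (SE 0.394). For 7 ependymal markers it was -0.0256, with Hydin at 0.28 (SE 0.326) and Tm4sf1 at 0.10 (SE 0.118). Tm4sf1 is also a gene of endothelial cells, so it does not set ependymal cells apart from vessels. For the neuron markers the median was -0.0292, with Gad2 at 0.11 (SE 0.0781) and Dsp at -0.11 (SE 0.0982).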

How the data were processed

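Poly(A) RNA was enriched from 500 ng of total RNA and sequenced in pairs of 150 bp, per the labels' protocols. The authors deposited whole-number read counts per gene name, made with STAR 2.6.1d and featureCounts on GRCm38 per the submitters' processing notes. The authors also deposited a comparison table, made with edgeR 3.11 per the submitters' processing notes, with a log2 fold change and a p-value per gene per the file headers. Libraries were made with a directional kit. The annotation release and counting strand were not named in these sources.

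The counts were analysed in R 4.3.3 with edgeR 4.0.16: filterByExpr (minimum count 10, minimum total 15), TMM scaling, and the quasi-likelihood F test of genotype over all 15996 genes without covariates. CPM uses TMM-scaled totals and log2 CPM a prior count of 2. An SE is the absolute log2 fold change over the root of the F statistic. TPM and positions use GENCODE M21 (GRCm38). Correlations used exact permutation. Libraries of a genotype differed beyond counting noise, so none was another one sequenced again, and each was counted once. This cannot show that they came from different animals. Scripts were tested on simulated data. Alternatives were DESeq2 1.42.0, limma-voom (limma 3.58.1), 3 other scalings, no filter, a replicate block and libraries left out.

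All 31 genes are named, with library values for the SoxF, smooth muscle and leading genes and the 3 of each class with the smallest p. From each further list, genes at an unadjusted p under 0.05, or the 2 with the smallest p, are named. Members, lists and rules were chosen with earlier results of these data known.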

Additional observations from a re-analysis of the deposited data

Results flagged for a closer look

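In each genotype the 4 libraries of every vessel gene, and of the endothelial and mural medians, were searched for 1 value distant from the rest. It occurred in 2 of 66 groups, and chance alone gives about 1 in 20. Acta2 was at 3.59 log2 CPM in T29-1 Cre replicate 1 and at 2.34 to 2.46 in the other T29-1 Cre libraries, so that the gap to the nearest library made up 0.905 of the whole range. Vtn was at 5.37 log2 CPM in WT replicate 3 and at 5.57 to 5.597 in the other WT libraries, a share of 0.897. In both cases the limit for 4 libraries is 0.829.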

How the results depend on the processing

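No member was called under any alternative, and the smallest adjusted p of any member in any of them was 0.892, shared by Sox18 and others with no filter on low counts. Sox18 kept its direction in all 17 alternatives, at -0.43 to -0.34. The number of members at an unadjusted p under 0.05, 1 in the reported fit, was 1 to 4 when one library was left out. It was 4 without T29-1 Cre replicate 1, where Esam (-0.26), Vtn (-0.17) and Acta2 (-0.34) joined Sox18, against 2.26% of all tested genes. It was 2 without WT replicate 1 (Kdr, against 2.56% of all genes) or T29-1 Cre replicate 4 (Flt1, against 2.82%). With T29-1 Cre replicate 1 and WT replicate 4 both left out, chosen after seeing the data, it was 7, all lower in T29-1 Cre, against 2.59% of all tested genes. With T29-1 Cre replicates 1 and 4 both left out, also chosen afterwards, it was 1. The cause was not tested.

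The sign of small fold changes depended on single libraries. With one library left out in turn, the log2 fold change passed through 0 for 19 genes: Abcb1a (-0.0651 to 0.101), Acta2 (-0.342 to 0.197), Anpep (-0.264 to 0.0838), Cdh5 (-0.0794 to 0.0589), Cldn5 (-0.136 to 0.105), Eng (-0.129 to 0.103), Itm2a (-0.0216 to 0.0491), Mfsd2a (-0.104 to 0.106), Myh11 (-0.0136 to 0.369), Pecam1 (-0.161 to 0.0179), Rgs5 (-0.0152 to 0.105), Robo4 (-0.0922 to 0.143), Slc2a1 (-0.104 to 0.0185), Slco1a4 (-0.0220 to 0.154), Tagln (-0.225 to 0.404), Tek (-0.00908 to 0.168), Tie1 (-0.135 to 0.117), Vtn (-0.168 to 0.0107) and Vwf (-0.240 to 0.0606). Under limma-voom, Cldn5 (-0.0145), Tie1 (-0.0183) and Acta2 (-0.0166) changed sign, as did Tie1 with upper quartile scaling (-0.00472) and with no filter on low counts (-0.000146). The median over endothelial genes was -0.0794 to 0.101 and that over mural genes -0.0910 to 0.176 with one library left out, both lowest without T29-1 Cre replicate 1. Genes that kept their sign moved too, such as Emcn (0.0359 to 0.386), Kdr (0.0696 to 0.363, lowest without WT replicate 4) and Pdgfrb (0.0192 to 0.188).

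Same-numbered libraries of the genotypes did not deviate together (r of -0.141, 0.126, 0.0101 and -0.0175 over 11502 genes). Libraries with different numbers had r of -0.261 to 0.194. These values cannot show whether same-numbered libraries shared a litter, day or batch, which the labels do not name. With the replicate block, 2 members, Sox18 and Flt1, had an unadjusted p under 0.05, against 2.45% of all tested genes, none was called, and Cldn5 (-0.00799) and Tie1 (-0.00845) changed sign. The block was not applied to the correlations, as it leaves only 4 differences. The r of Acta2 with Myh11 was -0.0345 to 0.811 with one library left out, lowest without T29-1 Cre replicate 1, and no pair passed under any alternative. With no filter on low counts, and with the block, 1 gene of the other cell type lists was called, Ttr. Its SD within T29-1 Cre (11.1 CPM) was close to its mean there (11.3 CPM). Depth limits Sox7 most, at 25 to 40 counts per library.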
